A study of Mus with 96 samples.

Results

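The 6 genes described here, Cyp2a4, Cyp2a5, Cyp2a12, Cyp2a22, Cyp2b9, and Cyp2b10, encode cytochrome P450 enzymes of the Cyp2a and Cyp2b subfamilies, and were taken by symbol from the 55487 genes counted in mouse liver. They were selected on their measured levels by genotype, diet, and time of day, so these values are given as a description without tests, whereas sex, which the choice did not use, was tested. All 6 passed the filter on low counts, which kept the 15548 genes whose counts over the 96 libraries added up to 100 or more.

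The study asked how loss of the hepatocyte clock changes liver gene expression over the day, in health and in metabolic dysfunction-associated steatohepatitis. Both genotypes carried floxed alleles of Bmal1 (Arntl), a core clock gene, on a C57BL/6J background. Hep-Bmal1KO mice also carried 1 copy of a Cre transgene driven by the albumin promoter, which deletes Bmal1 in hepatocytes and leaves the clock of other liver cells in place, and Hep-Bmal1WT mice were their littermates without Cre. Mice aged 8 to 10 weeks at the start received normal chow (NC) or, for 2 weeks, a high-fat diet that lacks choline (cdHFD). Livers were collected at zeitgeber times (ZT, hours after lights on) 2, 6, 10, 14, 18, and 22 from 4 mice in each of 24 groups. There were 49 males and 47 females, 12 of each sex per genotype and diet except for 13 males and 11 females in Hep-Bmal1WT on cdHFD.

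Cytochromes P450 insert oxygen into fat-soluble molecules and receive their electrons from the reductase Por. Cyp2a5 is the mouse coumarin 7-hydroxylase and also oxidizes nicotine and bilirubin. Its near-identical paralog Cyp2a4 hydroxylates testosterone. Cyp2a12 hydroxylates steroids and bile acids, Cyp2b9 is a steroid hydroxylase known as female-predominant in mouse liver, and Cyp2b10 is the classical target of phenobarbital through the nuclear receptor CAR (Nr1i3). In rodents the pattern of growth hormone secretion, read by hepatocytes through STAT5, sets the level of many sex-biased P450 genes, and the PAR bZIP factors Dbp, Tef, and Hlf, which are outputs of the clock, activate several genes of drug metabolism.

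The members lie in a single P450 cluster on chromosome 7, within 1139 kb of the GRCm38 assembly. In the RefSeq annotation, Cyp2b10 (ENSMUSG00000030483) spans 25897658 to 25926624, Cyp2b9 (ENSMUSG00000040660) 26173350 to 26210661, Cyp2a4 (ENSMUSG00000074254) 26307192 to 26315088, Cyp2a5 (ENSMUSG00000005547) 26835339 to 26843264, Cyp2a22 (ENSMUSG00000091867) 26931631 to 26939413, and Cyp2a12 (ENSMUSG00000060407) 27029090 to 27036818. Their summed counts over the 96 libraries ran from 13484 for Cyp2b10 to 449110 for Cyp2a12. Counts came from reads of the 3′ end of each mRNA, and how reads matching more than 1 paralog were treated is not given in the sources used here. The split between Cyp2a4 and Cyp2a5, and among Cyp2b9, Cyp2b10, and their neighbour Cyp2b13, is therefore uncertain, and values for the sums of these genes are given beside the results.

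The libraries held 1861740 to 9718615 counts on genes, with a median of 6412078.5, and levels are given in CPM, in which each library is brought to the same total. All 6 hepatocyte markers were detected in each combination of sex, genotype, and diet, and the highest summed level of 3 olfactory and lung markers in any library was 0.78 CPM. The 3′ reads of Arntl need not come from the deleted part of the gene, so its level does not check the deletion, but its 24-hour swing was 16-fold in Hep-Bmal1WT and 2.17-fold in Hep-Bmal1KO on NC, and 15.9-fold and 2.76-fold on cdHFD. On 10 clock genes and on 20 other genes that differ between genotypes, members excluded, 7 libraries lay nearer to the genotype opposite to their label, 4 on NC and 3 on cdHFD. These are the libraries labelled Hep-Bmal1WT NC ZT6 replicate 2 and ZT18 replicate 4, Hep-Bmal1KO NC ZT6 replicate 4 and ZT10 replicate 3, Hep-Bmal1WT cdHFD ZT10 replicate 3 and ZT14 replicate 1, and Hep-Bmal1KO cdHFD ZT14 replicate 1. They were kept under their labels, and several results of the members are also given without them. Sums of paralogs, read shares, and mean levels by ZT were computed only with these libraries kept. So were all values of genes that are not members, including the Arntl swings above. The Xist and Y-linked counts went against the sex label in 1 library, Hep-Bmal1KO cdHFD ZT10 replicate 4. Replicate numbers are not in the labels and only follow the order of the deposited records within each group. In most groups 1 and 2 are males and 3 and 4 females, so leaving out 1 number removes mostly 1 sex. The labels name each library by a letter and a number, and all libraries of any of the 12 numbers shared 1 genotype and diet but held both sexes, so what these numbers stand for cannot be told apart from genotype and diet.

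Females had higher levels than males of 5 of the 6 members, Cyp2a4, Cyp2a12, Cyp2a22, Cyp2b9, and Cyp2b10, averaged over the 4 combinations of genotype and diet (edgeR quasi-likelihood test, Benjamini-Hochberg adjusted p under 0.05). The background was 10.9% of all genes tested that were called higher in females. The mean log2 difference of females minus males was 4.49 ± 0.18 (SE) for Cyp2b9 (adjusted p = 1.8e-36), 3.79 ± 0.27 for Cyp2a4 (adjusted p = 1e-20), and 3.39 ± 0.13 for Cyp2a22 (adjusted p = 3e-38). It was 1.72 ± 0.22 for Cyp2b10 (adjusted p = 1.5e-09) and 0.32 ± 0.04 for Cyp2a12 (adjusted p = 2.5e-10). For Cyp2a5 it was -0.22 ± 0.19, which did not pass the test (adjusted p = 0.47). As folds, the differences of the members that passed ran from 22.5 for Cyp2b9 to 1.25 for Cyp2a12.

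Cyp2b9 separated the sexes most completely. In Hep-Bmal1WT on NC, females ranged from 94.3 to 263 CPM around a median of 226, and males from 0.629 to 58.1 CPM around a median of 1.41. In Hep-Bmal1KO on NC, females ranged from 85.3 to 325 CPM (median 168) and males from 0.165 to 7.11 CPM (median 1.54). Every female lay above every male in both genotypes. On cdHFD the ranges of the sexes were closer, with 24.7 to 72.6 CPM in females (median 58.4) against 2.39 to 20.3 CPM in males (median 6.14) in Hep-Bmal1WT, and 26.9 to 61.3 CPM (median 39.5) against 2.37 to 24.3 CPM (median 5.23) in Hep-Bmal1KO. The sexes still did not overlap in either. The log2 difference of females minus males was 5.53 ± 0.37 in Hep-Bmal1WT and 6.73 ± 0.41 in Hep-Bmal1KO on NC, and 2.92 ± 0.32 and 2.79 ± 0.32 on cdHFD, with adjusted p from 1.8e-24 to 4.6e-10. The male at 58.1 CPM was Hep-Bmal1WT NC ZT6 replicate 1, a library not against its genotype label, and without it the first of these differences was 6.81.

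Cyp2a22 gave nearly the same picture. On NC, Hep-Bmal1WT females held 21.4 to 224 CPM (median 103) and males 0.712 to 9.14 CPM (median 2.23), and in Hep-Bmal1KO on NC females held 28.1 to 232 CPM (median 74.9) and males 0.495 to 6.89 CPM (median 1.63). On cdHFD, male levels were higher, at 15.9 to 43.7 CPM (median 26.5) in Hep-Bmal1WT and 10.6 to 37.8 CPM (median 17.3) in Hep-Bmal1KO, beside female ranges of 44.7 to 145 CPM (median 110) and 34.7 to 82.7 CPM (median 49.3). The sexes did not overlap in 3 of the 4 combinations. In Hep-Bmal1KO on cdHFD, 10 of 12 females lay above the highest male. The log2 difference was 5.03 ± 0.28 and 5.15 ± 0.29 in Hep-Bmal1WT and Hep-Bmal1KO on NC, and 1.91 ± 0.22 and 1.46 ± 0.22 on cdHFD (adjusted p = 2.8e-26, 1.6e-26, 1.2e-10, and 1.2e-06).

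Cyp2a4, the testosterone hydroxylase, was the most variable of the female-higher members. On NC, females of Hep-Bmal1WT ranged from 106 to 1883 CPM (median 868), and males from 1.14 to 271 CPM (median 4.11). The highest male was again Hep-Bmal1WT NC ZT6 replicate 1, and apart from it all 12 females lay above all other males. In Hep-Bmal1KO on NC, females ranged from 29.2 to 1820.0 CPM (median 72.9), with the highest value in the library labelled Hep-Bmal1KO ZT10 replicate 3, and males from 1.62 to 5.33 CPM (median 3.31), without overlap. On cdHFD the sexes overlapped broadly, with 80.5 to 704 CPM in females (median 304) and 28.3 to 323 CPM in males (median 103) of Hep-Bmal1WT, and 23.5 to 223 CPM (median 73.6) and 4.71 to 122 CPM (median 22.4) in Hep-Bmal1KO. Only 4 of 11 and 3 of 12 females lay above the highest male there. The log2 difference of females minus males was 6.42 ± 0.60 (adjusted p = 1.1e-14) in Hep-Bmal1WT and 5.68 ± 0.63 (adjusted p = 1.1e-11) in Hep-Bmal1KO on NC. On cdHFD it was 1.53 ± 0.47 (adjusted p = 0.053) and 1.54 ± 0.46 (adjusted p = 0.067), neither of which passed. Without the 7 libraries against their labels, the cdHFD differences were 1.66 and 1.73 and passed (adjusted p = 0.00089 and 0.0008), and the NC difference in Hep-Bmal1KO was 4.29. Without Hep-Bmal1WT NC ZT6 replicate 1, the NC difference in Hep-Bmal1WT was 7.42, and both cdHFD differences passed (adjusted p = 0.013 and 0.017).

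**Figure D1:**
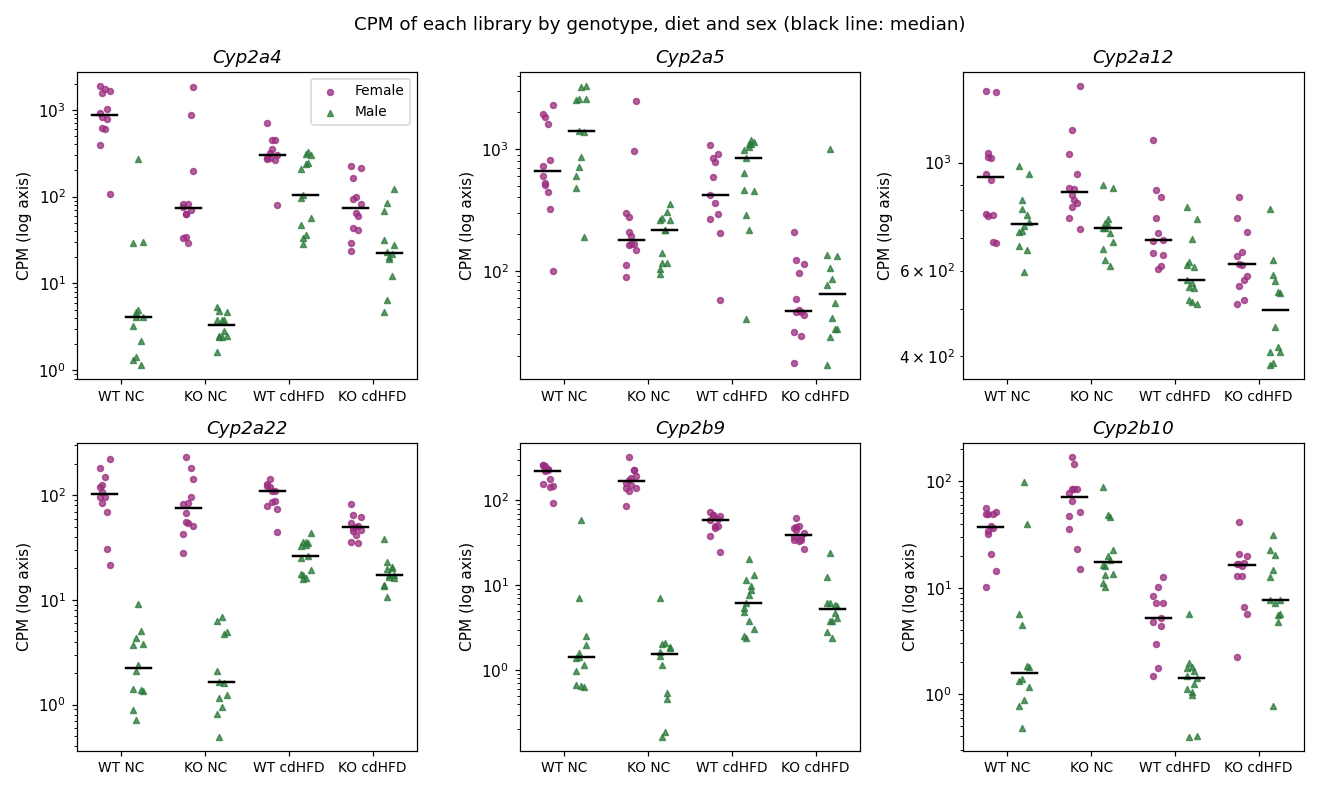
Level of each member in every library, in CPM on a log axis, for females (circles) and males (triangles) of the 4 combinations of genotype and diet, with black lines at the medians. For Cyp2b9 every female lies above every male in all 4 combinations, whereas for Cyp2a5 the sexes overlap in all 4.

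Cyp2b10 was higher in females in 3 of the 4 combinations. On NC, Hep-Bmal1WT females ranged from 10.2 to 55.9 CPM (median 37.1) and males from 0.474 to 99.3 CPM (median 1.58), with 10 of 12 males below the lowest female. Of the other 2 males, 1 was Hep-Bmal1WT NC ZT6 replicate 1, at 99.3 CPM, and the other the library labelled Hep-Bmal1WT NC ZT6 replicate 2, at 39.5 CPM. In Hep-Bmal1KO on NC, female levels of 14.9 to 169 CPM (median 71.4) overlapped male levels of 10.1 to 89.4 CPM (median 17.3). The log2 difference on NC was 2.90 ± 0.48 in Hep-Bmal1WT (adjusted p = 2.5e-06) and 1.55 ± 0.35 in Hep-Bmal1KO (adjusted p = 0.00089). On cdHFD the gene was low, with medians of 5.15 CPM in females and 1.42 CPM in males of Hep-Bmal1WT, and 16.3 and 7.66 CPM in Hep-Bmal1KO. The difference there was 1.99 ± 0.53 in Hep-Bmal1WT (adjusted p = 0.019) and 0.45 ± 0.39 in Hep-Bmal1KO (adjusted p = 0.78, 95% confidence interval -0.32 to 1.22). The call in Hep-Bmal1WT on cdHFD was lost when replicate 1, 2, 3, or 4 of every group was left out (adjusted p = 0.053, 0.22, 0.23, and 0.064), and the call in Hep-Bmal1KO on NC was lost without replicate 2 (adjusted p = 0.095).

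Cyp2a12 differed between the sexes by a small and even amount. Its medians were 936 CPM in females and 748 CPM in males of Hep-Bmal1WT on NC, 870.3 and 733 CPM in Hep-Bmal1KO on NC, 695 and 574 CPM in Hep-Bmal1WT on cdHFD, and 619 and 499 CPM in Hep-Bmal1KO on cdHFD. Female and male libraries overlapped in all 4, and the ratio of the medians ran from 1.19 to 1.25. The log2 differences, between 0.29 and 0.33, passed the test in each combination (adjusted p = 0.0044, 0.0013, 0.0096, and 0.0064). With 1 replicate of every group left out, the adjusted p rose as high as 0.25 in Hep-Bmal1WT on NC, 0.55 in Hep-Bmal1WT on cdHFD, and 0.17 in Hep-Bmal1KO on cdHFD. The summed level of 6 hepatocyte markers also had higher medians in females than in males, at 196984 and 146499 CPM in Hep-Bmal1WT on NC, 128735 and 106886 CPM in Hep-Bmal1KO on NC, 76077 and 70714 CPM in Hep-Bmal1WT on cdHFD, and 62784 and 58403 CPM in Hep-Bmal1KO on cdHFD. The medians of 3 endothelial markers were 66.1 and 46.9 CPM in Hep-Bmal1WT on NC. Their part in the Cyp2a12 difference was not tested.

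Cyp2a5 stood apart from its paralog. In Hep-Bmal1WT on NC, females ranged from 100.0 to 2286 CPM (median 664) and males from 188 to 3302 CPM (median 1392), so that here the higher median was in males. The log2 difference of females minus males was -0.75 ± 0.37 (adjusted p = 0.18), and without the 7 libraries -0.69 ± 0.19, which passed (adjusted p = 0.0089). The lowest female and the lowest male were both among those libraries. Medians of females and males were 179.8 and 215 CPM in Hep-Bmal1KO on NC, 416 and 837 CPM in Hep-Bmal1WT on cdHFD, and 46.4 and 64.8 CPM in Hep-Bmal1KO on cdHFD. None of these 3 differences passed the test, and the sexes overlapped in all 3.

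By combination, 5 members passed the test as higher in females in Hep-Bmal1WT on NC against a background of 7.72% of genes, 5 in Hep-Bmal1KO on NC against 6.52%, 4 in Hep-Bmal1WT on cdHFD against 1.53%, and 3 in Hep-Bmal1KO on cdHFD against 1.21%. The 4 in Hep-Bmal1WT on cdHFD were Cyp2a12, Cyp2a22, Cyp2b9, and Cyp2b10, and became 2 or 3 when 1 replicate of every group was left out. Every female lay above every male for 2 members in Hep-Bmal1WT on NC, against 0.199% of all genes tested, for 3 in Hep-Bmal1KO on NC against 0.328%, for 2 in Hep-Bmal1WT on cdHFD against 0.109%, and for 1 in Hep-Bmal1KO on cdHFD against 0.0707%. When the counts of Cyp2a4 and Cyp2a5 were summed, the mean sex difference of the pair was 0.50 ± 0.19 (adjusted p = 0.053), and it passed in Hep-Bmal1KO on NC (1.17, adjusted p = 0.037) but not in Hep-Bmal1WT on NC (0.30, adjusted p = 0.68). For the sum of Cyp2b9, Cyp2b10, and Cyp2b13 it was 3.69 (adjusted p = 7.7e-33). These sums were fitted only with all libraries kept. In Hep-Bmal1KO on NC they include the females labelled ZT6 replicate 4 and ZT10 replicate 3, which were against their genotype label. These held 954 and 2502 CPM of Cyp2a5. Without the 7 libraries, the sex difference there moved from 5.68 to 4.29 for Cyp2a4 and from 0.59 to -0.06 for Cyp2a5.

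**Figure D2:**
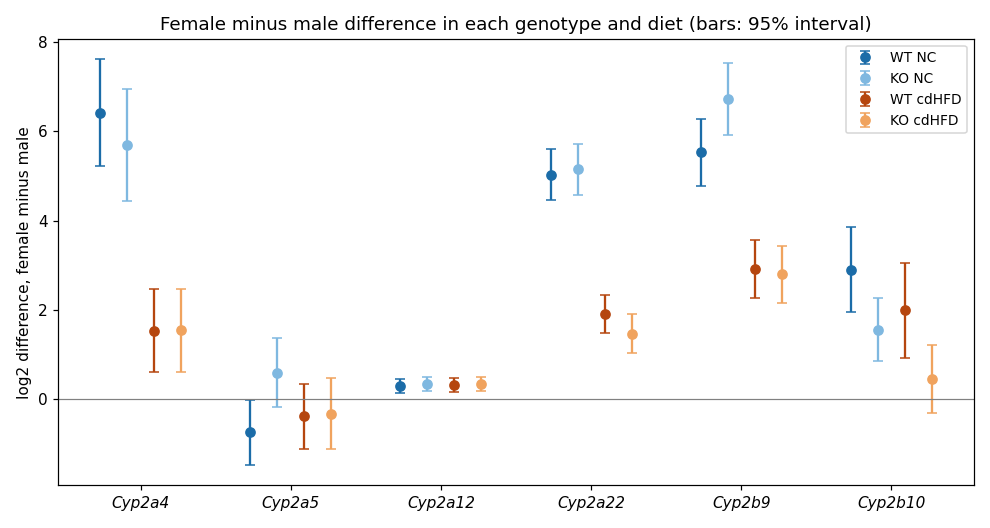
Log2 difference of females minus males for each member in each combination of genotype and diet, with bars for the 95% confidence interval and a line at 0. The differences of Cyp2a4, Cyp2a22, and Cyp2b9 lie between 5.03 and 6.73 on NC and between 1.46 and 2.92 on cdHFD.

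The sex difference was smaller on cdHFD than on NC for 3 members. The change in the log2 sex difference, cdHFD minus NC and averaged over genotypes, was -4.52 ± 0.54 for Cyp2a4 (adjusted p = 4.9e-10), -3.41 ± 0.26 for Cyp2a22 (adjusted p = 2.5e-18), and -3.27 ± 0.37 for Cyp2b9 (adjusted p = 9e-11), against 4.50% of all genes called in that direction. The same 3 members passed within Hep-Bmal1WT (-4.89, -3.12, and -2.61, adjusted p = 2.1e-06, 6.9e-10, and 0.00032, against 1.83%) and within Hep-Bmal1KO (-4.15, -3.69, and -3.94, adjusted p = 0.00014, 2.3e-12, and 1.1e-07, against 1.96%). Without the 7 libraries the value for Cyp2a4 was -2.57 in Hep-Bmal1KO (adjusted p = 0.0024). Without Hep-Bmal1WT NC ZT6 replicate 1, the values in Hep-Bmal1WT were -5.90 for Cyp2a4 and -3.90 for Cyp2b9. For Cyp2a4 and Cyp2a5 summed, the change did not pass on average (-0.48, adjusted p = 0.52), in Hep-Bmal1WT (-0.17, adjusted p = 0.92), or in Hep-Bmal1KO (-0.78, adjusted p = 0.56), whereas the sum of Cyp2b9, Cyp2b10, and Cyp2b13 passed on average (-1.71, adjusted p = 0.0001). For Cyp2b10 the mean change was -1.01 ± 0.46, which did not pass (adjusted p = 0.18), although DESeq2 gave -1.40 (adjusted p = 0.012), and the change within Hep-Bmal1KO passed without the 7 libraries (-1.56, adjusted p = 0.045). Cyp2a5 and Cyp2a12 did not pass in either genotype or on average.

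The narrower gap had a different make-up in each gene. Between NC and cdHFD, the male level was higher on the log2 scale by 3.28 ± 0.41 for Cyp2a4 and 3.04 ± 0.21 for Cyp2a22, while the female level was lower by a log2 change of -1.24 ± 0.32 and -0.37 ± 0.15. Fitted in females alone, the Cyp2a22 change was 0.07 ± 0.22 in Hep-Bmal1WT and -0.74 ± 0.21 in Hep-Bmal1KO. For Cyp2b9 the change was 1.26 ± 0.31 in males and -2.02 ± 0.21 in females. These diet differences are a description, without a test. Of 12 genes tested from a list of known female-biased liver genes, 10 had a smaller female-minus-male difference on cdHFD, among them Cyp2c69 (-3.99, adjusted p = 1.2e-14) and the plasma protein gene A1bg (-4.62, adjusted p = 3.5e-11), and of 13 male-biased genes 11 were called in the opposite direction, as were 3.69% of all genes. Of 9 genes of the growth hormone axis, only the growth factor gene Igf1 passed in this contrast (-0.36, adjusted p = 0.0013). The median over all genes in the sex comparison was 0.01.

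No member passed the edgeR test for a sex difference that differed between genotypes, but the sum of Cyp2b9, Cyp2b10, and Cyp2b13 did. The change in that sum, Hep-Bmal1KO minus Hep-Bmal1WT, was -1.99 on NC (adjusted p = 0.015) and -1.70 on average (adjusted p = 0.0065). On cdHFD it was -1.41 and did not pass (adjusted p = 0.4). For Cyp2a4 and Cyp2a5 summed, the change did not pass on NC (0.88, adjusted p = 0.63), on cdHFD (0.27, adjusted p = 0.95), or on average (0.58, adjusted p = 0.68). On NC 2 members had an unadjusted p under 0.05, as did 1550 of the 15548 genes tested. DESeq2 called 1 member and 198 genes there, and edgeR called 0.978% of all genes. On cdHFD 1 member had an unadjusted p under 0.05 and DESeq2 called 0, with 0% of all genes called by edgeR, 1072 genes at an unadjusted p under 0.05, and 9 genes called by DESeq2. For the mean of both diets, 1 member and 1478 genes had an unadjusted p under 0.05. DESeq2 called 1 member and 68 genes for this mean, and edgeR called 0.167% of all genes. The member called by DESeq2 was Cyp2b10, whose female-minus-male difference was smaller in Hep-Bmal1KO. Its log2 change was -1.35 ± 0.61 on NC (adjusted p = 0.40) and -1.54 ± 0.66 on cdHFD (adjusted p = 0.63) with edgeR, and -2.17 on NC with DESeq2 (adjusted p = 0.025).

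The division of reads within the near-identical pair was itself sex dependent. Cyp2a4 took 39.5% to 76% of the reads of Cyp2a4 and Cyp2a5 together in females of Hep-Bmal1WT on NC (median 51.6%), and 0.0823% to 24% in males (median 0.305%). In Hep-Bmal1KO on NC the share was 13.1% to 57.1% in females (median 28.6%) and 0.880% to 4.95% in males (median 1.56%). The sexes did not overlap on NC in either genotype. On cdHFD the median share was 39.9% in females and 18% in males of Hep-Bmal1WT, and 57.7% and 27.9% in Hep-Bmal1KO, and the ranges overlapped in both. The share is of reads as the authors assigned them and not of mRNA molecules.

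**Figure D3:**
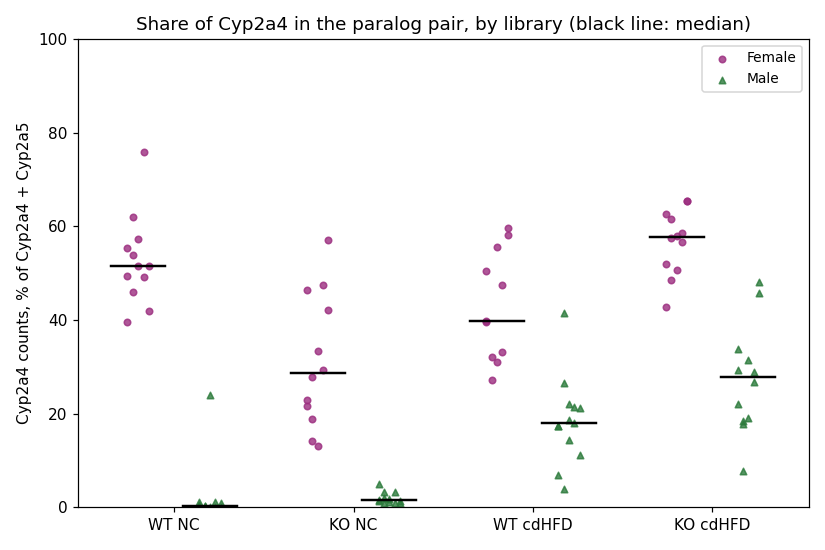
Share of the summed reads of Cyp2a4 and Cyp2a5 that was assigned to Cyp2a4, in percent, for each library by sex, genotype, and diet, with black lines at the medians. Females of Hep-Bmal1WT on NC lie between 39.5% and 76% and males between 0.0823% and 24%.

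Levels by genotype, which entered the choice of members, were lower in Hep-Bmal1KO for Cyp2a4 and Cyp2a5 and higher for Cyp2b10. The log2 difference, Hep-Bmal1KO minus Hep-Bmal1WT, was -2.45 ± 0.40 on NC and -2.16 ± 0.32 on cdHFD for Cyp2a4, and -2.04 ± 0.26 and -2.91 ± 0.27 for Cyp2a5. For Cyp2b10 it was 1.41 ± 0.27 and 2.06 ± 0.31. The NC value of Cyp2a4 was -3.17 without the 7 libraries and -1.69 without Hep-Bmal1WT NC ZT6 replicate 1. Cyp2a12 differed little between genotypes, by -0.04 ± 0.05 and -0.25 ± 0.05, and Cyp2a22 by -0.28 ± 0.22 and -0.76 ± 0.15. Cyp2b9 stood at -0.91 ± 0.29 and -0.33 ± 0.22, and its NC value was -0.13 ± 0.25 without Hep-Bmal1WT NC ZT6 replicate 1. For the summed counts of Cyp2a4 and Cyp2a5 the difference was -2.29 on NC and -2.62 on cdHFD, and for those of Cyp2b9, Cyp2b10, and Cyp2b13 it was 0.36 and 0.06.

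The genotype differences of Cyp2a5 and Cyp2b10 were wider without the 7 libraries. For Cyp2a5 they were -2.55 on NC and -3.36 on cdHFD, and for Cyp2b10 1.55 and 2.38. Those libraries were picked for their likeness to the opposite genotype, so leaving them out tends to widen genotype differences and is no separate check. In males of Hep-Bmal1WT on NC Cyp2a5 ranged from 188 to 3302 CPM, against 94.6 to 355 CPM in males of Hep-Bmal1KO. The 188 CPM belonged to the library labelled Hep-Bmal1WT ZT6 replicate 2. Fitted in each sex alone, the Cyp2a5 difference was -2.78 in males and -1.43 in females on NC, and -3.06 and -3.03 on cdHFD. That of Cyp2b10 was 2.95 in males and 1.03 in females on NC, and 2.70 and 1.21 on cdHFD. Thus both genes kept their direction in both sexes and on both diets.

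Levels by diet also entered the choice. On cdHFD, Cyp2a5, Cyp2a12, and Cyp2b10 were lower in both genotypes and both sexes. The log2 difference, cdHFD minus NC, was -0.88 in Hep-Bmal1WT and -1.75 in Hep-Bmal1KO for Cyp2a5, -0.34 and -0.54 for Cyp2a12, and -2.32 and -1.67 for Cyp2b10. Cyp2a4 and Cyp2a22 stood higher on average, at 0.87 and 1.17 for Cyp2a4 and 1.57 and 1.09 for Cyp2a22, through the males described above. Cyp2b9 was at -0.67 and -0.09, and at 0.12 in Hep-Bmal1WT without Hep-Bmal1WT NC ZT6 replicate 1. For the summed counts of Cyp2a4 and Cyp2a5 the difference was -0.94 in Hep-Bmal1WT and -1.26 in Hep-Bmal1KO, opposite in sign to Cyp2a4 alone. The sum of Cyp2b9, Cyp2b10, and Cyp2b13 stood at -1.02 and -1.32.

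Markers of some cell types also differed between the diets. The summed level of 5 macrophage markers had medians of 68.1 to 107 CPM over the sexes and genotypes on NC and 384 to 436 CPM on cdHFD, that of 4 stellate cell markers 197 to 287 and 581 to 748 CPM, and that of 6 hepatocyte markers 106886 to 196984 and 58403 to 76077 CPM. The medians of 5 pericentral hepatocyte markers were 3371 to 4218 CPM on NC and 1612 to 1998 CPM on cdHFD. Those of 3 endothelial markers were 46.9 to 66.1 and 52.2 to 61.2 CPM, and those of 4 cholangiocyte markers 14.1 to 34.7 and 20.2 to 49.7 CPM. All of these markers were detected in every combination. In bulk liver, fewer cells of a type and less RNA per cell cannot be told apart, and the part of cell composition in the diet differences was not tested.

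**Figure D4:**
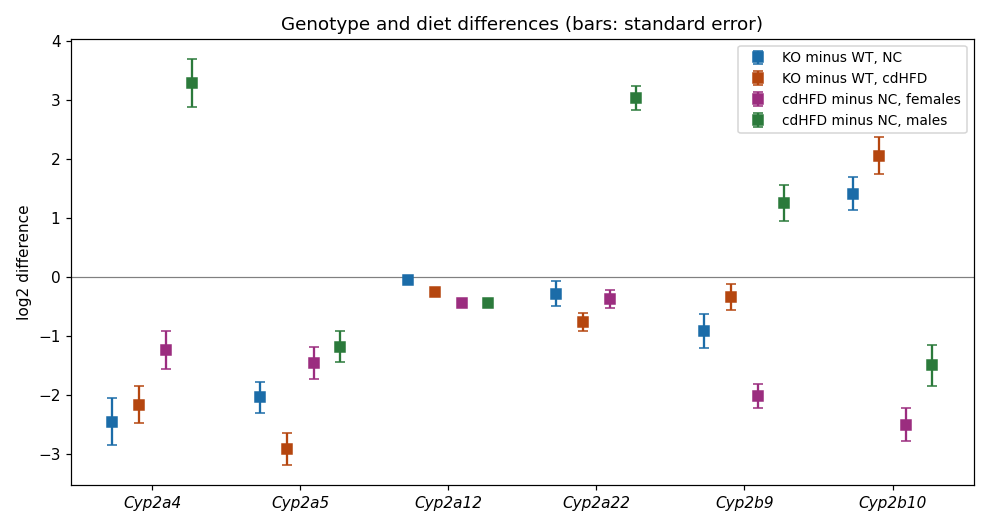
Log2 difference of each member by genotype, Hep-Bmal1KO minus Hep-Bmal1WT on each diet, and by diet, cdHFD minus NC in each sex, with bars for the standard error. Cyp2b10 lies above 0 in both genotype comparisons, and Cyp2a4, Cyp2a22, and Cyp2b9 lie on opposite sides of 0 in males and females for diet.

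Over the day, Cyp2a4 and Cyp2a5 were mostly highest late in the light phase or just after it. Cyp2a5 in Hep-Bmal1WT on NC had its highest mean at ZT10 (2517 ± 580 CPM, SD, n = 4), with 1934 CPM in the lowest and 3302 CPM in the highest mouse, and its lowest mean at ZT6 (454 ± 290 CPM, n = 4). A 24-hour cosine fitted to log2(CPM + 0.5) with a term for sex placed its peak at 12.8 ± 1.1 h (SE) with an amplitude of 1.08 ± 0.31, and at 13.1 ± 0.6 h without the 7 libraries. In Hep-Bmal1KO on NC the highest mean was also at ZT10 (853 CPM), but 1 of its 4 mice, the library labelled Hep-Bmal1KO ZT10 replicate 3, had 2502 CPM against 260 to 355 CPM in the other 3. The fitted amplitude there was 0.74 ± 0.28, and 0.36 ± 0.18 without the libraries against their labels. On cdHFD the highest mean of Cyp2a5 in Hep-Bmal1WT was at ZT6 (958 ± 143 CPM), and the fitted peak was 6.9 ± 1.9 h, or 9.3 ± 0.4 h without those libraries. In Hep-Bmal1KO on cdHFD the highest mean, 312 CPM at ZT14, rested on the library labelled Hep-Bmal1KO ZT14 replicate 1 at 995 CPM, and the fitted peak was 9.7 ± 0.8 h without it.

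Cyp2a4 had its highest mean at ZT10 in all 4 combinations, but in Hep-Bmal1WT on cdHFD the mean at ZT6 was close (324 and 320.0 CPM), and in Hep-Bmal1KO on NC the mean of 478 CPM rested on the library labelled ZT10 replicate 3. That library had 1820.0 CPM, and the other 3 had 3.78 to 81.9 CPM. Without the libraries against their labels, the fitted peak in Hep-Bmal1KO on NC was at 14.5 ± 1.6 h in place of 10.5 ± 2.0 h. In Hep-Bmal1WT on NC the female mean was 1766 CPM at ZT10 and 442 CPM at ZT18, and the male mean 29.6 CPM at ZT10 and 1.38 CPM at ZT22. There the fitted peak was at 8.9 ± 1.1 h with an amplitude of 1.45 ± 0.42. In Hep-Bmal1KO on cdHFD it was at 10.8 ± 0.7 h with an amplitude of 1.26 ± 0.24, and 10.6 ± 0.8 h without the library against its label. Cyp2a12 swung far less, with a highest mean of 1183 CPM at ZT10 in Hep-Bmal1WT on NC and a fitted amplitude of 0.20 ± 0.08.

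Cyp2b10 was mostly low when Cyp2a4 and Cyp2a5 were high. Its lowest mean was at ZT10 in Hep-Bmal1WT on NC (6.76 CPM), in Hep-Bmal1KO on NC (21.8 CPM), and in Hep-Bmal1KO on cdHFD (5.81 CPM), whereas in Hep-Bmal1WT on cdHFD the lowest was at ZT2 (2.31 CPM). Its highest mean was at ZT2 in Hep-Bmal1KO on both diets (87.5 and 20.8 CPM). In Hep-Bmal1WT on NC it was highest at ZT6, at 49.1 CPM, which rested on the males. These were replicate 1, at 99.3 CPM, and replicate 2, at 39.5 CPM and against its genotype label. The female mean of Cyp2b10 there was 28.7 CPM at ZT6 and highest at ZT22, at 52.45 CPM. Cyp2b9 had its highest mean at ZT2 in all 4 combinations (129.8 and 118 CPM in Hep-Bmal1WT and Hep-Bmal1KO on NC, and 37 and 33.2 CPM on cdHFD). Means by ZT pool the sexes, and Hep-Bmal1WT on cdHFD at ZT14 held only 1 female. She had 67.1 CPM of Cyp2b9, beside a pooled mean of 22.7 CPM there and a female mean of 70.1 CPM at ZT2. Female means of Cyp2b9 were highest at ZT2 in all 4 combinations. Male means were highest at ZT2 in Hep-Bmal1KO but at ZT6 in Hep-Bmal1WT, on either diet. The fitted amplitude of Cyp2b9 was 0.55 ± 0.34 in Hep-Bmal1WT and 0.38 ± 0.22 in Hep-Bmal1KO on NC, and 0.24 ± 0.21 and 0.41 ± 0.17 on cdHFD. That of Cyp2b10 was 0.88 ± 0.43 and 0.39 ± 0.28 on NC, and 0.35 ± 0.23 and 0.77 ± 0.30 on cdHFD. Several of these amplitudes are small beside their standard errors, so the times of the highest means are uncertain.

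**Figure D5:**
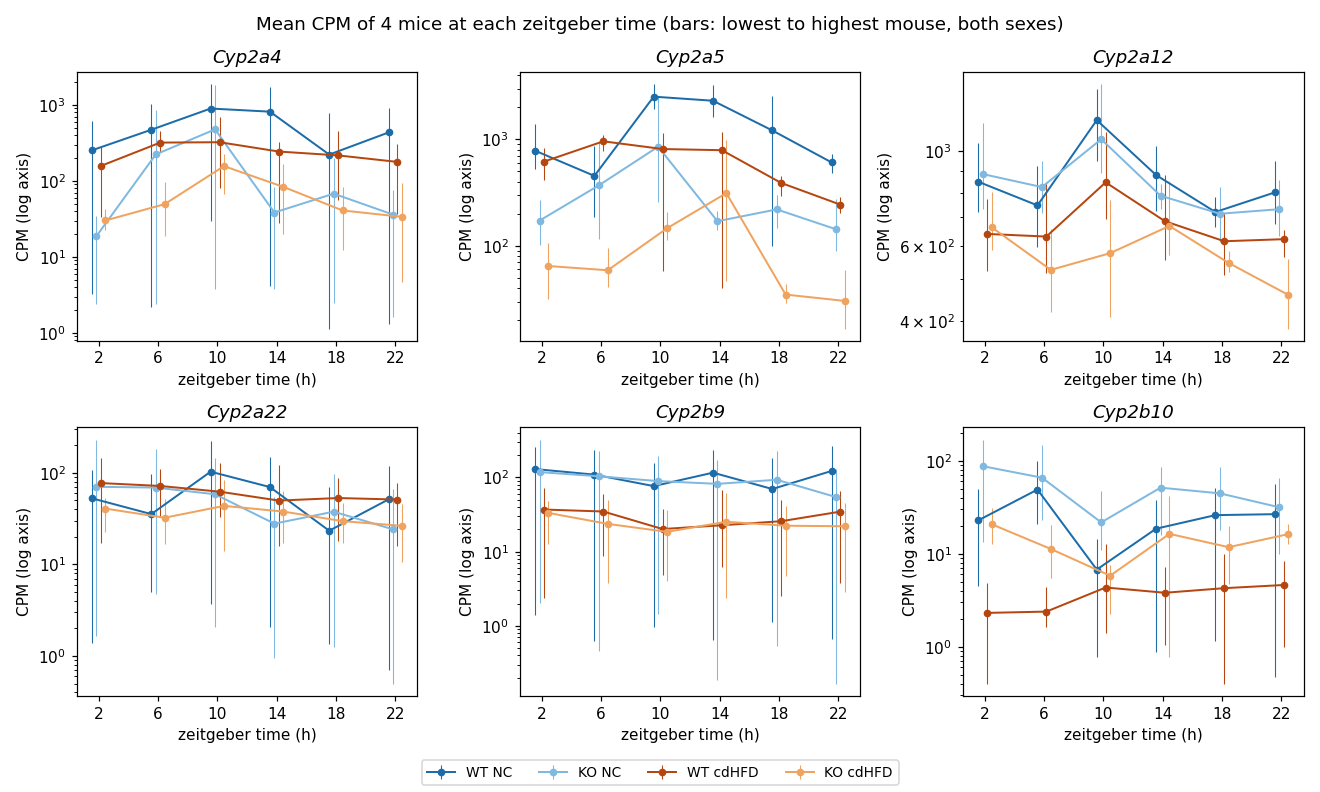
Mean level of each member over both sexes at the 6 ZTs in the 4 combinations of genotype and diet, in CPM on a log axis, with bars from the lowest to the highest of the 4 mice. Cyp2b10 is lowest at ZT10 in 3 of the 4, and the ZT10 mean of Cyp2a4 in Hep-Bmal1KO on NC, 478 CPM, rests on 1 library at 1820.0 CPM that is against its genotype label.

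The clock output factors were read in the same way. They were chosen with earlier results of these data known, so their adjusted p are a description. The fitted peak of Dbp was at 10.5 ± 0.4 h in Hep-Bmal1WT and 9.3 h in Hep-Bmal1KO on NC, with peak-to-trough folds of 34.7 and 6.88, and at 5.8 ± 0.3 h and 7.9 h on cdHFD, with 25.4-fold and 7.26-fold swings. That of Tef was at 12.6 and 10 h on NC and 7.5 and 9.2 h on cdHFD, and that of the repressor Nfil3 at 21.9 and 21.4 h and 18.3 and 18.7 h. All fits of these factors kept the libraries against their genotype labels, which in Hep-Bmal1KO on NC lie at ZT6 and ZT10. There the highest Dbp values were 147 CPM at ZT6 (mean 46.8 CPM) and 366 CPM at ZT10 (mean 118 CPM). The highest Tef value at ZT10 was 152 CPM (mean 84.5 CPM). In Hep-Bmal1WT the fitted peaks of Cyp2a5, Dbp, and Tef were earlier on cdHFD, where the Cyp2a5 amplitude was 0.72 ± 0.37. That of Cyp2a4 was later, at 8.9 ± 1.1 h on NC and 10.3 ± 1.9 h on cdHFD. With all libraries kept, the fitted peaks of Dbp and Tef in Hep-Bmal1KO were also earlier on cdHFD. Cyp2a5 in Hep-Bmal1KO peaked at 9.7 ± 1.5 h on NC and 10.6 ± 1.0 h on cdHFD. Without the libraries against their labels these Cyp2a5 peaks were at 11.1 ± 1.9 h and 9.7 ± 0.8 h. A link between these times was not tested. The mean Dbp level was lower in Hep-Bmal1KO on both diets (log2 difference -0.79, adjusted p = 0.0095, and -0.64, adjusted p = 0.034), Tef and Hlf were lower on cdHFD (-0.33, adjusted p = 0.0078, and -0.40, adjusted p = 0.0015), and Nfil3 was higher on NC (0.49, adjusted p = 0.0043).

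Other genes of the CAR pathway, from a list of targets of CAR and its relative PXR, are set beside Cyp2b10. The list was chosen with earlier results of these data known, so its calls and adjusted p are a description. Of 17 such genes, 11 were higher and 2 lower in Hep-Bmal1KO on NC, where 18% of all genes were called, 9.97% as higher and 8.07% as lower. The higher ones included the glutathione transferase Gstm3 (log2 difference 2.08, adjusted p = 1.1e-15) and the P450 genes Cyp2c55 (3.0, adjusted p = 2.5e-15) and Cyp2c29 (1.08, adjusted p = 1.1e-10). The lower ones, named after their values were seen, were Cyp3a13 (-0.38, adjusted p = 3e-05) and the transporter Abcc2 (-0.25, adjusted p = 0.00044). On cdHFD 3 were higher and 4 lower, against 9.45% of all genes called, with the sulfotransferase Sult1e1 higher (2.10, adjusted p = 1.7e-06) and the carboxylesterase Ces2a lower (-0.56, adjusted p = 0.00011). The receptor Nr1i3 itself was lower in Hep-Bmal1KO on both diets (-0.54, adjusted p = 2.1e-06, and -0.39, adjusted p = 0.0014), as was Por on NC (-0.81, adjusted p = 3.7e-11). Between the diets, 11 of the 17 were lower and 3 higher on cdHFD in Hep-Bmal1WT, and 13 lower and 3 higher in Hep-Bmal1KO. Over all genes 60.0% and 63.7% were called by diet, 28.3% and 29.4% as lower. By sex, 6 were higher and 6 lower in females, against 10.9% and 9.06% of all genes, and Nr1i3 was higher (0.57, adjusted p = 1.7e-11).

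Of the 7 other Cyp2 genes that lie among or beside the members, 4 passed the filter on low counts. Cyp2b13, next to Cyp2b9, was higher in females (log2 difference 5.80 ± 0.19, adjusted p = 6.1e-42), with every female above every male in all 4 combinations, and its sex difference was smaller on cdHFD (-1.73, adjusted p = 0.013). Cyp2g1 was higher in females (1.3, adjusted p = 4.4e-05) and Cyp2f2 lower (-0.37), and Cyp2s1 did not pass in the sex comparison. Cyp2b23, Cyp2t4, and Cyp2b19 had 3, 1, and 0 counts over all libraries.

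Likeness between profiles was measured as Pearson's r over 48 means, 1 per genotype, diet, ZT, and sex, among 12271 genes with a mean of at least 1 CPM. These means share the same libraries and their order by sex, so r is a description only. Cyp2a22 was most like the transporter gene Slc22a27 (r = 0.965), Nipal1 (0.914), and Sybu (0.899), and Cyp2b9 was like the sulfotransferase Sult2a2 (0.938) and Slc22a27 (0.932). Cyp2a4 was most like Cyp2a22 (0.899), Slc22a27 (0.861), and the thioesterase Acot3 (0.857). Cyp2a5 shared none of these and was most like the liver glycogen synthase Gys2 (0.855), Ak4 (0.846), and Pdha1 (0.828). Cyp2a12 was most like the steroid reductase Akr1d1 (0.883), Inmt (0.868), and Cyb5a (0.868), and Cyp2b10 most like Chic1 (0.806), Cyp2c68 (0.806), and Gm6135 (0.805). Between members, r was 0.899 for Cyp2a4 and Cyp2a22 and 0.894 for Cyp2a22 and Cyp2b9, but 0.244 for the paralogs Cyp2a4 and Cyp2a5.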

How the data were processed

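Livers of 96 mice, 1 library each, were profiled by BRB-seq, which barcodes and sequences the 3′ end of mRNA. Alignment by the authors was with STAR against mm10, and the deposited table holds raw counts per Ensembl gene without normalization (the processing notes list HTSeq and featureCounts). Whether reads of 1 molecule were collapsed is not given in the sources used here, so depth covers counting error only. Reads not assigned to a gene, 22.6% to 39.9% of the table, were left out.

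Groups and sex came from the labels. Genes with 100 or more counts in all were tested in R 4.3.3 with edgeR 4.0.16 (TMM, quasi-likelihood test, Benjamini-Hochberg adjustment over 15548 genes), in 1 fit of 24 cell means and 4 sex terms (68 residual degrees of freedom). CPM are TMM-scaled. No pair of libraries agreed within sampling noise. In counts simulated for the mean sex difference over 15548 genes, the test recovered 100 of 100 changes by a log2 value of 1 and 98 of 100 by 2.

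The members and gene lists were chosen with earlier results of these data known. All 6 members were named, with their cluster neighbours, receptor and PAR bZIP genes, up to 3 genes of smallest p from each other list, and the 3 most alike genes, of which 1 is not reported here. Alternatives were DESeq2 1.42.0, its size factors, other filters, sums of paralogs, each sex or group alone, and libraries left out.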

Additional observations from a re-analysis of the deposited data

Results flagged for a closer look

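In groups of 4 mice, a library was far from the other 3 in 7 of 144 sets of values (6 members in 24 groups). The rule took both sexes together, so its nominal rate of 1 in 20 does not apply where the sexes differ widely. For Cyp2b9 and Cyp2a22 on NC, for example, a single library could hardly stand apart. Hep-Bmal1WT NC ZT6 replicate 1 was not among the 7. Of these 7, 5 were in libraries that lay nearer to the opposite genotype. For Cyp2a5 they were the library labelled Hep-Bmal1KO NC ZT10 replicate 3 at 2502 CPM, against 260 to 355 CPM in the others, the library labelled Hep-Bmal1WT cdHFD ZT10 replicate 3 at 57.8 CPM, against 976 to 1135 CPM, and the library labelled Hep-Bmal1WT cdHFD ZT14 replicate 1 at 39.9 CPM, against 843 to 1183 CPM. The same ZT14 library had 28.3 CPM of Cyp2a4, against 310 to 323 CPM, and the same ZT10 library had 12.7 CPM of Cyp2b10, against 1.42 to 1.76 CPM. The other two were Cyp2a5 in Hep-Bmal1WT NC ZT2 replicate 2, at 1397 CPM against 527 to 605 CPM, and Cyp2b10 in Hep-Bmal1WT cdHFD ZT6 replicate 4, at 4.38 CPM against 1.64 to 1.79 CPM.

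The sex difference differed between the diets by its own test for Cyp2a4 (log2 change -4.52 on average, -4.89 in Hep-Bmal1WT, and -4.15 in Hep-Bmal1KO), Cyp2a22 (-3.41, -3.12, and -3.69), and Cyp2b9 (-3.27, -2.61, and -3.94).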

How the results depend on the processing

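Of the counts of members under other settings, 184 stayed within 1.5 times the reported count and 17 did not. With paralogs summed, leaving 4 items, 3 were higher in females on average and in Hep-Bmal1WT on NC, 3 were below 0 by genotype on each diet, and 1, the Cyp2b sum, passed for sex by genotype on NC and on average. DESeq2 called 1 member for sex by genotype on NC and on average, beside 198 and 68 of all genes. Without the filter on low counts, 6 members passed in Hep-Bmal1KO on cdHFD, 4, 1, and 3 for sex by genotype on NC, on cdHFD, and on average, and 5 for sex by diet in Hep-Bmal1KO and on average. The share of all genes called without the filter is not given here, so these counts have no background. For the mean Cyp2a5 sex difference, -0.22 with and without the filter, the SE was 0.04 in place of 0.19. Its adjusted p in the edgeR test was 3.7e-06 in place of 0.47, and the cause was not tested. With 1 replicate number left out, 2 to 3 members in place of 4 were higher in females of Hep-Bmal1WT on cdHFD. The Cyp2a5 sex difference, which passed neither way, reversed in Hep-Bmal1KO on NC (-0.0557) and on cdHFD (0.0907) without the 7 libraries, and ranged from -0.599 to 0.0451 on cdHFD with 1 replicate number left out, reversed without replicate 1. The cause was not tested. Of the single values, 1012 kept their direction and call or moved by less than the spread between mice, 12 lost and 28 gained the call, and 49 values without a test moved by more than the spread between mice. The exclusion of Hep-Bmal1WT NC ZT6 replicate 1, and that of the library against its sex label, were added after seeing the data. No paired analysis was possible because the labels carry no replicate numbers. At the depth of these libraries, male Cyp2b9 and Cyp2a22 on NC rest on few counts each.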
